A study of Mus musculus with 6 samples.

Results

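The complement genes C1qa, C1qb, C1qc, C3, Cfb, Cfp, C3ar1, C5ar1 and Serping1 were followed in RNA from B16 melanoma tumours of mice. They were chosen by name and are 9 of the 26754 genes in each table. The groups were day 14 and day 7 after implantation, with 3 libraries each. All came from female C57BL/6J mice aged 6 to 8 weeks (genotype label C57) that carried B16 cells, a mouse melanoma line, under the skin of the right flank and received no other stated agent. Tumour cells were passed over a column with beads against CD8a, a co-receptor of cytotoxic T cells, and messenger RNA was sequenced from the cells retained. No label says that replicates came from separate mice, so p-values measure only the spread between these libraries, which may be technical.

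Complement is a cascade of plasma and tissue proteins that tags cells for uptake and attracts leukocytes. C1q, built from A, B and C chains in equal amounts, starts the classical pathway, and in tissues it is made mainly by macrophages. All pathways meet at C3, whose fragments attach to the target, while factor B (Cfb) and properdin (Cfp) form and stabilise the enzyme that amplifies C3 cleavage. The fragments C3a and C5a act on the receptors C3ar1 and C5ar1 of myeloid cells, and C1 inhibitor (Serping1) blocks the proteases attached to C1q.

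Promoter sequences are shown for C1qb, which rose on day 14, for its neighbour C1qc and for C3, neither of which gave a call. They are RefSeq sequences of GRCm38.p6 on the minus strand, read 5′ to 3′, and capitals mark matches to the motifs described after them. The C1qb window is chr4:136886201-136886450 and the C3 window chr17:57228137-57228386, each the 250 bases before the RefSeq start. For C1qc the 99 bases at chr4:136893066-136893164 are shown, which lie upstream of the start in the files as well.
C1qb: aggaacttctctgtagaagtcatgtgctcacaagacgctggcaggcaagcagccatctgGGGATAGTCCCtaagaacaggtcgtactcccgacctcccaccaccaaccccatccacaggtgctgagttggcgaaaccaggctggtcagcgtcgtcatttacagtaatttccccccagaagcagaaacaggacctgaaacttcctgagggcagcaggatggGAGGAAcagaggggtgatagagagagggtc
C1qc: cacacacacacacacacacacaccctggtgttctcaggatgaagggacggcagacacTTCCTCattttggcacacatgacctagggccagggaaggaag
C3: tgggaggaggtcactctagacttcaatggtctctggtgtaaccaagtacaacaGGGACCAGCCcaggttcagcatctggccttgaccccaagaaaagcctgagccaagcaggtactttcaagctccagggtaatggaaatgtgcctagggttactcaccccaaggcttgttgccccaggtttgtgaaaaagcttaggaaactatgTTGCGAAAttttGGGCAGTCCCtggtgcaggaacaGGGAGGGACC
C1qb and C1qc each held 1 match to GAGGAA, a core read by PU.1 and other ETS factors, at -30 to -25 from the start in C1qb and on the opposite strand at -193 to -188 in C1qc. Of 32851 mouse promoter windows of 250 bases, 23.3% held this motif on either strand. A loose NF-kB form, GGGA followed by 4 free bases and CC, matched 3 times in C3, 2 times in C1qb, where the matches lie on opposite strands and overlap, and 1 time in C1qc at -40 to -31, outside the bases shown. It was found in 17.6% of windows. C3 also held the C/EBP form TTGCNNAA at -45 to -38, which 9.56% of windows hold. None of these 3 windows matched TGANTCA (AP-1) or TATAAA, whereas the C3ar1 window held both, and 6.75% and 12.4% of all windows hold them. Promoters were matched for 6 of the 9 genes, not for C1qa, Cfb and Serping1.

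Depth was 11385106 to 13316522 reads in genes on day 14 and 6523019 to 9313078 on day 7. Day 7 replicates 1 and 2 differed by little more than sampling noise (median chi-square ratio 1.11, where 1 is noise alone) and were averaged as 1 sample, giving n = 2, while replicate 3 stood apart from them (40.9 and 44.4). Cells other than CD8+ T cells were present on both days. In summed RPKM (reads per kilobase of gene scaled to the reads in genes), the 12 T cell markers stood at 136 to 143 on day 14 and 509 to 526 on day 7, and 7 melanocyte markers at 10410 to 11430 on day 14 and 5672 to 5896 on day 7. Most of the melanocyte sum is Dct, and 3 of the 7 (Tyrp1, Dct and Mlana) were called higher, with a median log2 fold change of 0.57. The 10 macrophage markers summed to 1043 to 1076 on day 14 and 801 to 842 on day 7, and 6 liver genes to 3.35 to 6.09 on day 14 and 116 to 175 on day 7. In such mixed RNA, fewer cells of a type and less RNA per cell cannot be told apart.

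C1qa and C1qb were higher on day 14, and they were the only 2 of the 7 complement genes tested to be called. Tested genes had a mean of 20 CPM (reads scaled to a library of 1000000) or more, and a call was a limma adjusted p under 0.05 over 6691 genes, of which 1.7% were called higher and 3.18% lower. None of the 7 was called lower, neither by limma at an unadjusted p under 0.05 nor by limma-voom on reads, which called 21.5% of genes higher and 10.6% lower. The median log2 fold change of the 7 was 0.21, against 0.16 for all genes tested. In 3 of the 7 all day 14 libraries lay above all day 7 libraries, as they did in 31.6% of tested genes, and in none did they lie below, as in 17.8%.

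**Figure D1:**
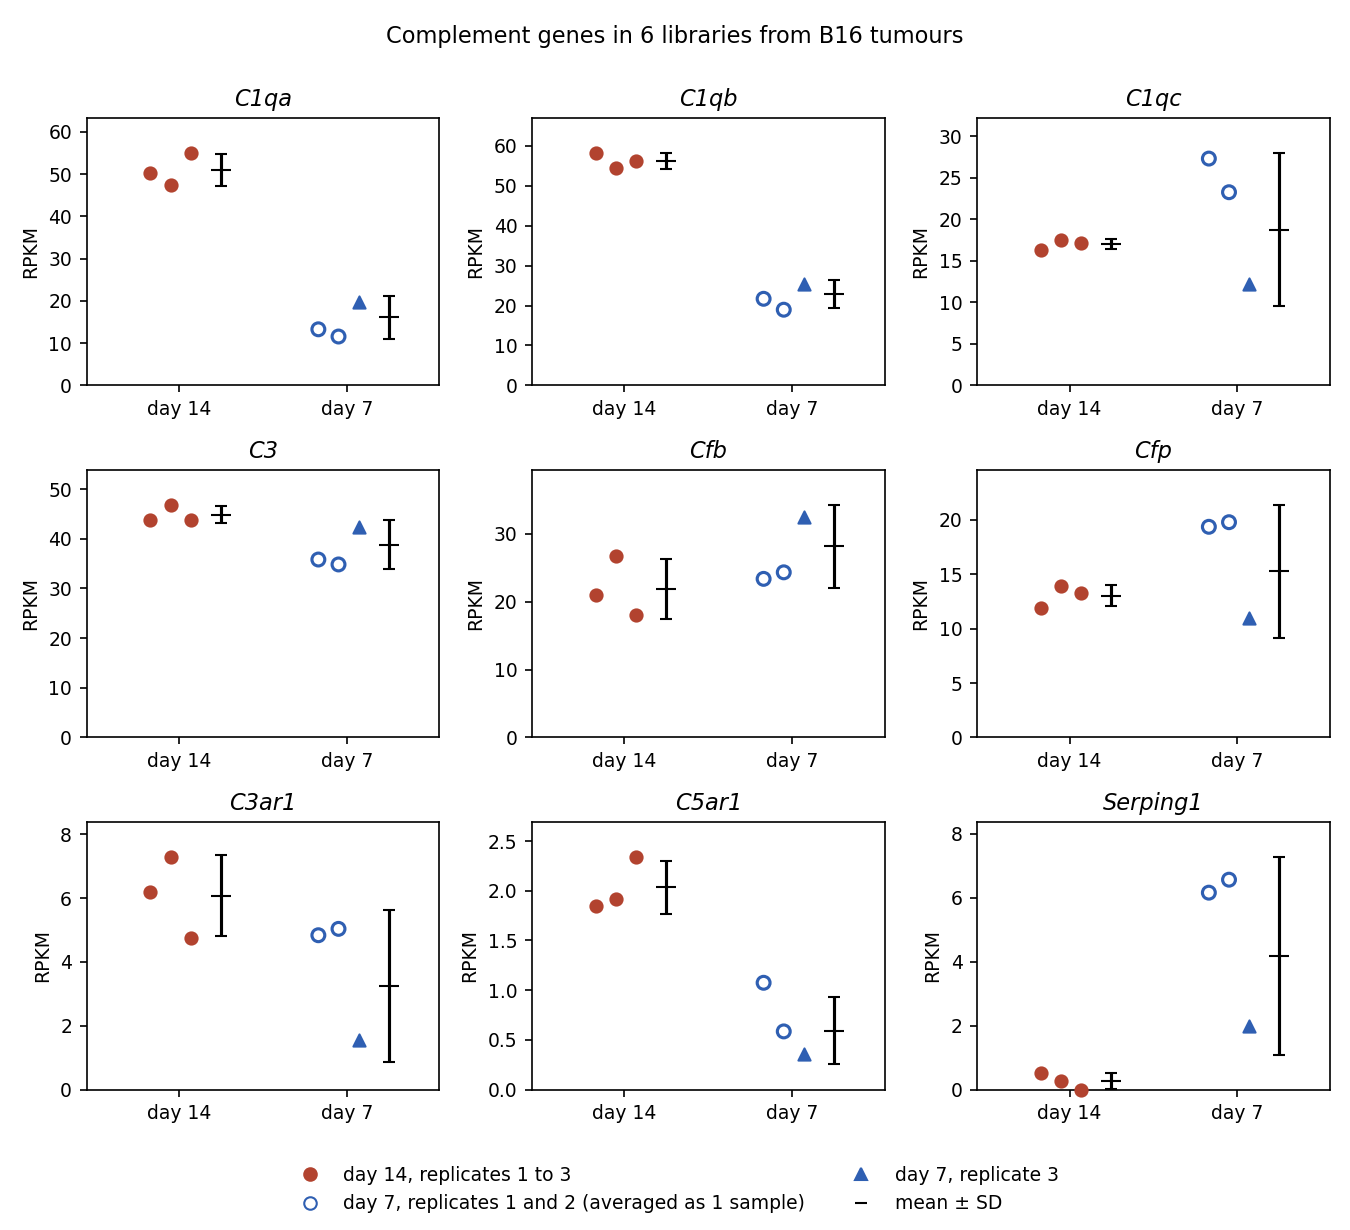
RPKM of the 9 complement genes in each library, with day 14 left of day 7, points for libraries and bars for mean ± SD (n = 3 on day 14 and n = 2 on day 7). C1qa and C1qb lie between 47.5 and 58.2 RPKM on day 14 and between 11.6 and 25.4 on day 7, and Serping1 is at 0.529 RPKM or less on day 14.

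C1qa, the A chain of C1q (chromosome 4, 136895917 to 136898803, minus strand of GRCm38, as all 9 members), had 50.3, 47.5 and 55.0 RPKM in day 14 replicates 1 to 3, against 13.3, 11.6 and 19.8 RPKM in day 7 replicates 1 to 3. The groups did not overlap, and the highest day 7 library was replicate 3. Its mean of 51.0 ± 3.78 (SD, n = 3) on day 14 was 3.17 times the 16.1 ± 5.19 (SD, n = 2) on day 7. On the log2(RPKM + 1) scale, which understates changes of low genes, it rose by 1.64 (SE 0.33, limma adjusted p = 0.0175). C1qb, the B chain (chromosome 4, 136880129 to 136886187), had 58.2, 54.4 and 56.1 RPKM on day 14, against 21.7, 18.9 and 25.4 on day 7. Its day 14 libraries were close together and all above those of day 7. Means were 56.2 ± 1.92 on day 14 (SD, n = 3) and 22.8 ± 3.57 on day 7 (SD, n = 2), a log2 rise of 1.27 (SE 0.27, limma adjusted p = 0.0219). Without day 7 replicate 3 the log2 values were as large, 1.95 for C1qa and 1.42 for C1qb, but neither passed (limma adjusted p = 0.0695 and 0.112). In that fit day 7 is 1 sample with its variance taken from the full set, and 0.46% of genes were called higher and 1.38% lower.

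C1qc, the C chain, lies between C1qa and C1qb (chromosome 4, 136889804 to 136893065) and gave no call. It had 16.3, 17.5 and 17.1 RPKM on day 14, against 27.3, 23.2 and 12.2 on day 7. The day 14 libraries fell inside the day 7 range, with day 7 replicates 1 and 2 above them and replicate 3 below. The log2 fold change was -0.053 with a 95% interval of -0.79 to 0.68 (limma adjusted p = 0.949). The gene model behind this value is 1931 bases long. It joins the 3-exon coding transcript of 1203 bases with a non-coding transcript that has an exon of 913 bases, and the tables do not say which of them the reads came from. C1qa and C1qb have 1 transcript each, of 1040 and 1088 bases.

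The balance of the chains differed between libraries. C1qa stood at 0.865, 0.874 and 0.981 of the C1qb level on day 14, against 0.612, 0.610 and 0.779 on day 7. C1qc stood at 0.281, 0.322 and 0.305 of C1qb on day 14, against 1.26, 1.23 and 0.482 on day 7. In the C1qc ratio day 7 replicate 3 was nearer to every day 14 library than to the other day 7 libraries. In the C1qa ratio it was nearer to day 14 replicates 1 and 2, but not to day 14 replicate 3. With all C1qc reads put on the coding transcript, a setting chosen after seeing the data, the C1qc ratio was 0.450 to 0.516 on day 14 and 0.774 to 2.02 on day 7. The chains together took 0.0142% to 0.0151% of reads on day 14 and 0.00718% to 0.00901% on day 7.

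**Figure D2:**
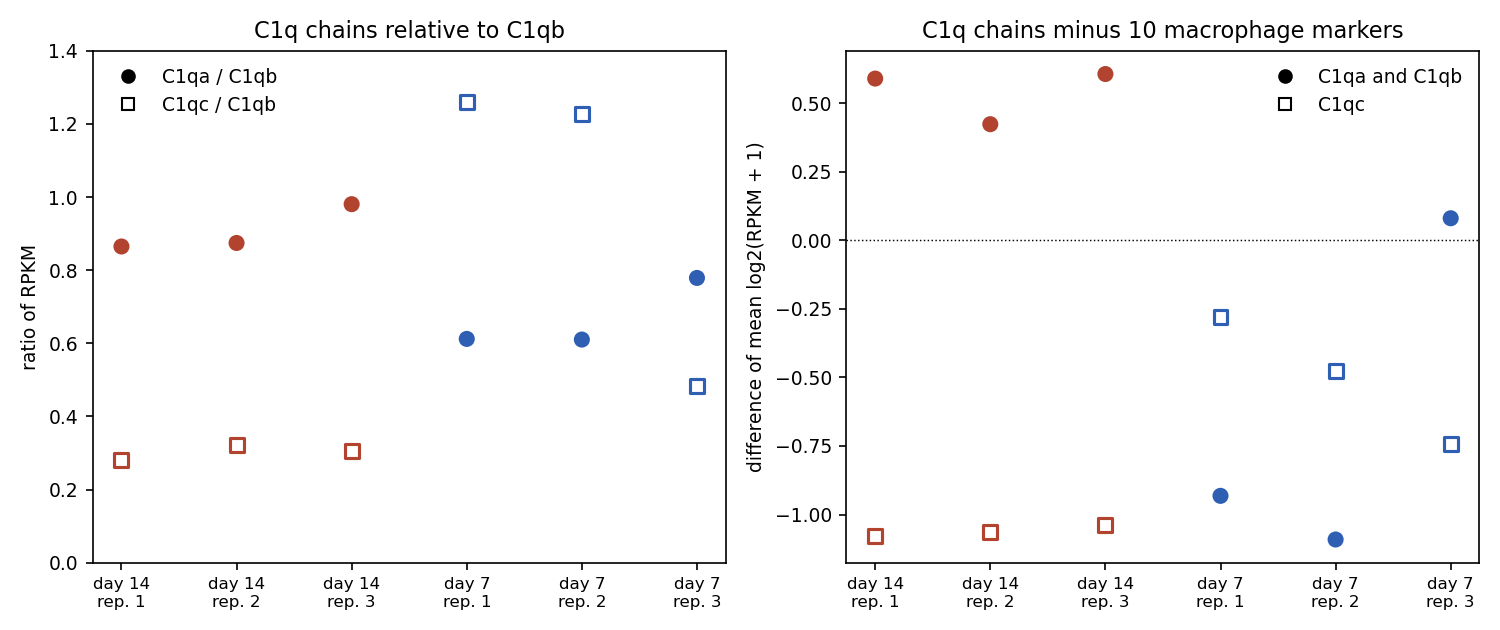
Left, ratio of RPKM of C1qa and of C1qc to C1qb in each library, day 14 libraries first; right, mean log2(RPKM + 1) of C1q chains minus the mean of 10 macrophage markers in each library. The C1qc ratio is 0.281 to 0.322 on day 14 and reaches 1.26 on day 7.

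Macrophage markers were set beside the C1q chains because macrophages are the best known source of C1q. Of 9 markers tested, 2 were higher on day 14, 1 was lower and 6 gave no call, with a median log2 fold change of 0.50. The mannose receptor Mrc1 had 35.0, 40.8 and 36.4 RPKM on day 14, against 19.0, 17.7 and 4.67 on day 7 (log2 fold change 1.87, SE 0.44, limma adjusted p = 0.0362). Apoe, a lipid carrier of macrophages, also rose, by 0.50 on that scale (limma adjusted p = 0.0226). Aif1 went the other way, at 44.7, 35.9 and 41.4 RPKM on day 14 and 75.0, 72.8 and 117 on day 7 (limma adjusted p = 0.0188). Adgre1, which encodes F4/80, was at 19.6 ± 3.12 RPKM on day 14 (SD, n = 3), against 23.9 ± 5.80 on day 7 (SD, n = 2), with no call. The mean log2(RPKM + 1) of C1qa and C1qb minus that of the 10 markers was 0.59, 0.42 and 0.61 on day 14, against -0.93, -1.09 and 0.080 on day 7. For C1qc the differences were -1.08, -1.07 and -1.04 on day 14 and -0.28, -0.48 and -0.74 on day 7. The mean of C1qa and C1qb thus lay above the marker mean in every day 14 library, and also in day 7 replicate 3. In that day 7 library C1qb alone was above the marker mean and C1qa was just below it. C1qc lay below the marker mean in every library by the full gene model. By the coding transcript it did so in all libraries except day 7 replicates 1 and 2. With all reads on the coding transcript, C1qc was at 26.2, 28.1 and 27.5 RPKM on day 14. The day 7 values were then 43.8, 37.3 and 19.6 RPKM.

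Scaled to the mean of these markers, C1qa and C1qb kept their direction and lost their calls. The log2 fold changes were 1.20 for C1qa (95% interval 0.19 to 2.21, limma adjusted p = 0.258) and 0.83 for C1qb (-0.085 to 1.75, limma adjusted p = 0.447). That scaling called 0.12% of genes higher and 2.66% lower. Its marker means were 5.20, 5.27 and 5.22 on day 14 and 5.10, 5.08 and 4.47 on day 7, so day 7 replicate 3 stood low. Scaled to the T cell markers, all 7 tested complement genes rose, by 1.06 for Cfb up to 3.03 for C1qa, as 85.4% of all genes did, with 0.463% lower. Median-of-ratios scaling kept both calls, at 1.46 for C1qa and 1.09 for C1qb, with 0.852% of genes higher and 4.48% lower. It called 57 genes higher and 300 lower, against 114 and 213 by share of reads. The median of all genes was 0.16 by share of reads, -0.015 by median of ratios, -0.26 per macrophage marker and 1.48 per T cell marker. The part of the melanocyte and T cell markers in these changes was not tested.

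**Figure D3:**
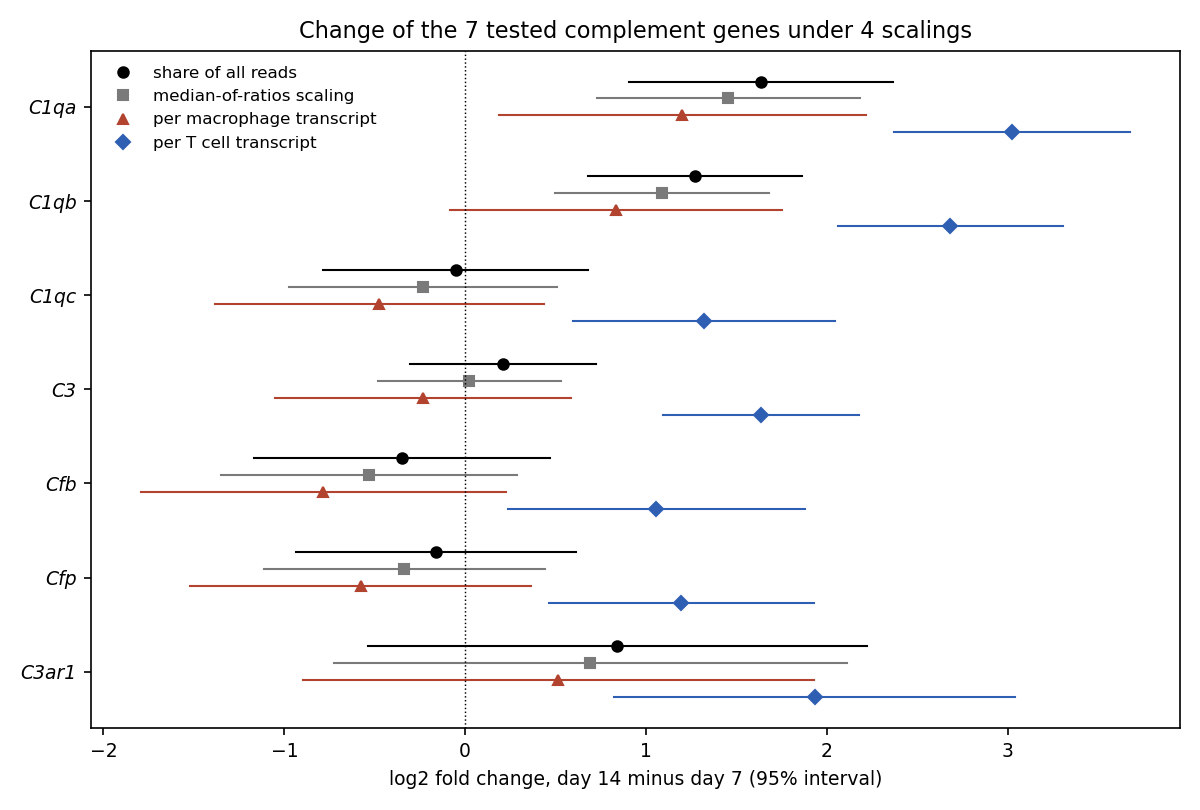
Log2 fold change of day 14 minus day 7 with its 95% interval for the 7 tested complement genes, by share of reads and under 3 other scalings. C1qa and C1qb lie above 0 under all 4, whereas C1qc, C3, Cfb and Cfp change sign between scalings.

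C3 and its activating partners gave no call. C3, the substrate common to all pathways (chromosome 17, 57203970 to 57228136), had 43.9, 46.8 and 43.8 RPKM on day 14, against 35.8, 34.8 and 42.3 on day 7. The groups did not overlap, but day 7 replicate 3 came close to the lowest day 14 library. The log2 fold change was 0.21 with a 95% interval of -0.31 to 0.72 (limma adjusted p = 0.672), and it was -0.23 when scaled to macrophage markers. C3 had the most reads of the 9 genes, with 2568, 3022 and 2999 on day 14 and 1468, 1668 and 1418 on day 7.

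Cfb, the factor B protease of the alternative pathway (chromosome 17, 34856374 to 34862518), had 20.9, 26.7 and 18.1 RPKM on day 14, against 23.4, 24.3 and 32.5 on day 7. The groups overlapped, with a log2 fold change of -0.35 and a 95% interval of -1.17 to 0.47 (limma adjusted p = 0.652). Its value is uncertain because the model Gm20547 covers 2246 of its 2825 exonic bases on the same strand. Gm20547 was at 26.8 ± 3.16 RPKM on day 14 (SD, n = 3), against 38.2 ± 2.55 on day 7 (SD, n = 2). Cfp, properdin, is made by myeloid cells (chromosome X, 20925454 to 20931555) and had 11.9, 13.9 and 13.3 RPKM on day 14, against 19.4, 19.8 and 10.95 on day 7. As for C1qc, the day 14 libraries lay between day 7 replicate 3 and the other day 7 libraries. The log2 fold change was -0.16 with a 95% interval of -0.93 to 0.61 (limma adjusted p = 0.843).

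The anaphylatoxin receptors were low. C3ar1, the C3a receptor (chromosome 6, 122847138 to 122856161), had 6.20, 7.29 and 4.74 RPKM on day 14, against 4.84, 5.04 and 1.57 on day 7. The lowest day 14 library fell under day 7 replicates 1 and 2, so the groups overlapped. Its log2 fold change of 0.84 had a wide 95% interval of -0.54 to 2.22 (limma adjusted p = 0.496). C5ar1, the C5a receptor of neutrophils and macrophages (chromosome 7, 16246743 to 16259540), had 1.85, 1.92 and 2.34 RPKM on day 14, against 1.07, 0.585 and 0.358 on day 7. These rest on 54, 62 and 80 reads on day 14 and 22, 14 and 6 on day 7. All day 14 libraries were above all day 7 libraries, as in 27% of genes with a read. C5ar1 missed the filter, and its difference of 0.94 on the log2(RPKM + 1) scale gave an exact two-sided permutation p of 0.1, the smallest that the 10 splits of 5 samples allow. In the fit without the filter, which called 5.2% of genes higher and 1.25% lower, its limma adjusted p was 0.234. The 6 neutrophil markers summed to 50.2 to 65.3 RPKM on day 14 and 12.7 to 17.4 on day 7, and most of the day 14 sum was S100a9, at 39.2, 36.6 and 49.2 on day 14 and 6.25, 3.29 and 8.81 on day 7. S100a8 overlapped between the days, at 2.78, 5.39 and 5.19 RPKM on day 14 and 7.23, 6.81 and 1.77 on day 7. Cxcr2 and Retnlg had reads in all day 14 libraries and none on day 7, and Ly6g had reads in 1 day 14 library only. Their part in the C5ar1 values was not tested.

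Serping1, the C1 inhibitor (chromosome 2, 84765387 to 84775444), was the only one of the 9 genes with all day 14 libraries below all day 7 libraries. It had 0.529, 0.274 and 0 RPKM on day 14, against 6.15, 6.56 and 1.98 on day 7. Behind these are 14, 8 and 0 reads on day 14 and 114, 142 and 30 on day 7. The 0 in day 14 replicate 3 would allow up to 0.0969 RPKM if reads were independent (3 reads, counting error only). Reads came in pairs and most low counts were even, so the true limit is higher. Of genes with a read, 8.59% lay lower on day 14 in the same way. Serping1 missed the filter, and its difference of -1.91 on the log2(RPKM + 1) scale gave an exact two-sided permutation p of 0.1, again the smallest possible. Its limma adjusted p without the filter was 0.187. C1 inhibitor is made by the liver among other tissues, and liver markers were lower on day 14 too. Alb was at 3.23, 4.15 and 1.03 RPKM on day 14 and 52.8, 53.6 and 43.9 on day 7, and Serpina1a at 0.479, 0.435 and 0.984 on day 14 and 22.9, 22.2 and 1.17 on day 7. The 7 fibroblast markers, of another known source, summed to 1.63 to 1.81 RPKM on day 14 and 1.42 to 2.28 on day 7. The part of either in the Serping1 values was not tested.

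By mean level in RPKM, the order on day 14 was C1qb, C1qa, C3, Cfb, C1qc, Cfp, C3ar1, C5ar1 and Serping1. Among neighbours in that order the libraries of only C1qb and C1qa overlapped. On day 7 the order was C3, Cfb, C1qb, C1qc, C1qa, Cfp, Serping1, C3ar1 and C5ar1. Each neighbouring pair from Cfb to Cfp overlapped there, as did Serping1 and C3ar1. The place of C1qc depends on its length. On the coding transcript it was at 26.2 to 28.1 RPKM on day 14, above the mean of Cfb and overlapping it, and on day 7 its mean of 30.1 RPKM also came before Cfb. All 9 genes together took 0.0477% to 0.0519% of reads on day 14 and 0.0398% to 0.0412% on day 7.

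Of 48 other complement genes listed by role, 44 were measured and 10 passed the filter, of which none was called higher and 1 was called lower. At an unadjusted p under 0.05 limma had 4.0 of the 10 higher and 2.0 lower, where 11.3% of all genes tested were higher and 8.18% lower. Limma-voom called 2 of the 10 higher (Itgam and Lrp1) and 3 lower (C1ra, C2 and Itgb2). The median log2 fold change of the 10 was -0.20. In the classical and lectin list, 3 of 14 measured genes were tested. C4b, the C4 that is cleaved after C1q binds, had 25.3, 26.6 and 24.3 RPKM on day 14 and 31.1, 30.8 and 48.6 on day 7 (limma adjusted p = 0.233). C2, its partner in the C3 convertase, stood at 13.9 ± 0.974 RPKM on day 14 (SD, n = 3), against 22.5 ± 3.56 on day 7 (SD, n = 2) (limma adjusted p = 0.260), and is uncertain because it shares 1656 bases with Gm20547. C1ra, the C1r protease, was at 5.41 ± 1.94 RPKM on day 14 (SD, n = 3), against 11.5 ± 2.36 on day 7 (SD, n = 2) (limma adjusted p = 0.357). In limma-voom the log2 fold changes were -0.76 for C2 and -1.23 for C1ra.

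**Figure D4:**
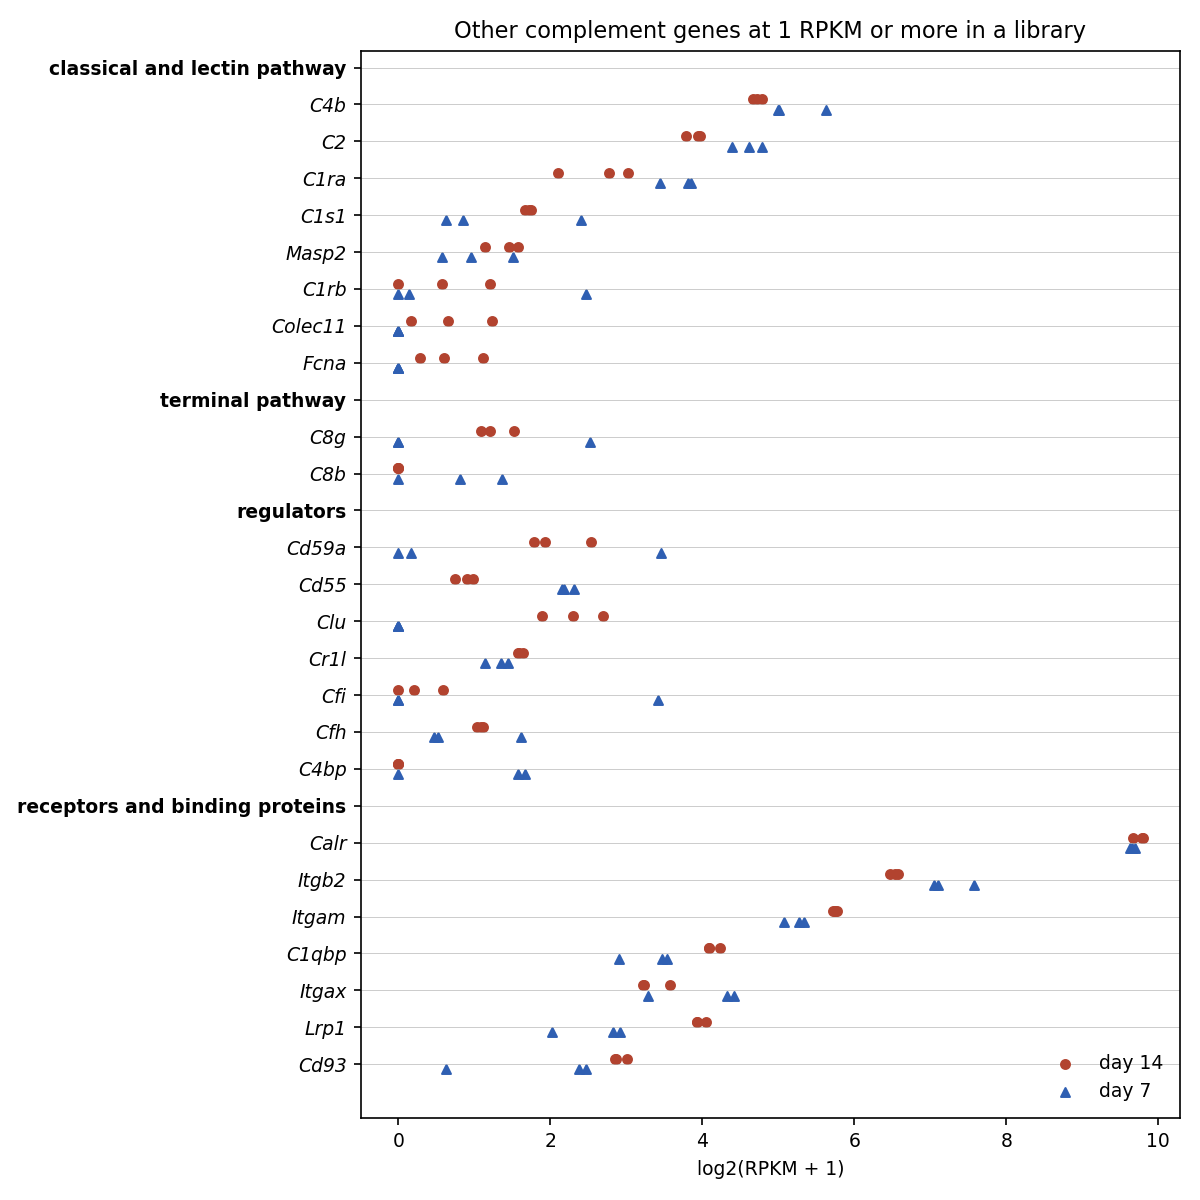
Log2(RPKM + 1) in each library of the 24 other complement genes that reached 1 RPKM in a library, day 14 beside day 7, grouped by role. Calr stands highest on both days, and Clu is at 0 in all day 7 libraries.

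Among receptors and binding proteins, 7 of 10 were tested. Itgb2, the shared chain of the complement receptors CR3 and CR4, fell to 87.7, 91.7 and 94.7 RPKM on day 14, against 136, 132 and 190 on day 7 (log2 fold change -0.80, SE 0.18, limma adjusted p = 0.0265). It is also the beta chain of LFA-1 on T cells. All 11 T cell markers tested were lower on day 14, and 6 of them were called. The part of T cells in the Itgb2 values was not tested. The Itgb2 call ended without day 7 replicate 3, where the log2 fold change was -0.55. It also ended without day 14 replicate 1 (limma adjusted p = 0.0548) or replicate 2 (0.0528), and without the filter (0.0518). Both macrophage scalings ended it as well (limma adjusted p = 0.0756 and 0.208). Scaled to T cell markers, Itgb2 was called higher, by 0.66 (limma adjusted p = 0.00405). Itgam, the alpha chain of CR3 on myeloid cells, stood at 52.7 ± 0.873 RPKM on day 14 (SD, n = 3), against 36.8 ± 1.01 on day 7 (SD, n = 2) (limma adjusted p = 0.249). Calr, a chaperone that can bind C1q, was at 859 ± 40.4 RPKM on day 14 (SD, n = 3), against 805 ± 5.50 on day 7 (SD, n = 2). C1qbp was at 16.6 ± 1.08 RPKM on day 14 (SD, n = 3), against 8.42 ± 2.71 on day 7 (SD, n = 2). None of these 3 was called in the main setting. Itgam was called higher by limma-voom (log2 fold change 0.54, limma adjusted p = 0.00523), without weights (0.0342) and with 6 libraries singly (0.0213), and C1qbp without weights (0.0476) and with 6 libraries singly (0.0314). Lrp1, a scavenger receptor, is named after its values were seen. It had 14.3, 15.6 and 14.2 RPKM on day 14 and 6.08, 6.52 and 3.06 on day 7, a log2 difference of 1.52 that missed the threshold (limma adjusted p = 0.0978) and was called in 5 alternatives, limma-voom among them. Vsig4, the complement receptor of resident macrophages, had no read in any library.

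No regulator and no gene of the alternative and terminal list passed the filter. Clu encodes clusterin, an inhibitor of the terminal complex. It had 3.93, 5.46 and 2.71 RPKM on day 14, from 154, 236 and 124 reads, and no read in any day 7 library. That would allow up to 0.110, 0.0937 and 0.134 RPKM if reads were independent, and more because they came in pairs. Without the filter it was the only other complement gene called (limma adjusted p = 0.000436), in a fit that called 5.2% of genes higher and 1.25% lower. Its day 7 values, all 0, had no spread, and its exact two-sided permutation p was 0.1, the smallest possible. Gene detection was wider on day 14, at 18318 to 19053 genes per library, than on day 7, at 13133 to 13806. The part of this difference in the Clu values was not tested. Cd59a, another inhibitor of the terminal complex, was at 2.81, 2.46 and 4.81 RPKM on day 14 and 0, 0.119 and 9.99 on day 7. Cfi, the protease that cuts C3b, was at 0.158, 0.502 and 0 RPKM on day 14 and 0, 0 and 9.67 on day 7. For both, day 7 replicate 3 was the highest library and the other day 7 libraries were at or near 0. In the terminal pathway C8g, the gamma chain of C8, was at 1.88, 1.12 and 1.31 RPKM on day 14 and 0, 0 and 4.72 on day 7, so its day 7 level rests on replicate 3. C8b, another chain of C8, was read in day 7 replicates 1 and 2 and in no other library.

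The mean profile of the C1q chains over the 5 samples was matched most closely by Far2, Pgm2, Aspm, Nav2, D8Ertd738e and Aamp, at Euclidean distances of 0.0301 to 0.088 on the centred log2(RPKM + 1) scale. Far2, the nearest, had 9.15, 9.18 and 9.67 RPKM on day 14 and 4.67, 4.23 and 4.30 on day 7. The chains lay farther from their own mean, at 0.425 for C1qb, 0.884 for C1qa and 1.301 for C1qc, and 4310 tested genes were nearer to it than C1qc.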

How the data were processed

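Stranded poly-A libraries were sequenced in pairs. The deposited tables hold RPKM, made by the authors with Trimmomatic 0.36, featureCounts of Subread 1.5.1 and GRCm38, per the submitters' processing notes. The aligner, how molecular identifiers were used and whether counting used strand were not stated, so antisense or overlapping models may share reads. RPKM times length gave whole reads within 0.001, from which depth and CPM were computed. The main test was limma 3.58.1 (R 4.3.3) on log2(RPKM + 1) for genes averaging at least 20 CPM in 5 samples, with day 7 replicates 1 and 2 averaged. Precision weights were taken for either day from a loess curve (span 0.3, variance floor 0.005), and p-values had Benjamini-Hochberg adjustment. The fit was tested on simulated reads. Alternatives were another pseudocount, other filters, no weights, 6 libraries singly with and without a replicate block, 3 other scalings, limma-voom on reads, and leaving out each library. Members and lists, and the averaging and filter, were chosen with earlier results of these data known. Genes named are the 9 members, called genes of the other complement lists, up to 3 uncalled genes per list by mean RPKM (tested ones first), and the 6 nearest to the C1q profile. Clu falls outside this rule. It was not called in the main setting and ranks below Cd59a, Cfi and Cd55 by the mean of the day means. Cfd, Cd59b, Colec10 and Csmd1 were not analysed here. Limits from reads cover counting error only and treat 3 reads as independent. Of low counts, 75.6% to 87.7% per library were even, so reads were not independent and true limits are higher. Motifs were searched on both strands.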

Additional observations from a re-analysis of the deposited data

How the results depend on the processing

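C1qa and C1qb kept their direction in all 17 alternatives and their call in 14 each. The calls ended under both macrophage scalings (0 members called) and without day 7 replicate 3. Leaving out 1 library gave 0 to 2 called members, T cell scaling gave 7 and the other alternatives 2. With T cell scaling the log2 fold changes turned to 1.32 for C1qc, 1.06 for Cfb, 1.20 for Cfp, 0.66 for Itgb2, 0.83 for C4b and 0.74 for C2. Other complement genes called, 1 in the main setting, numbered 5 with 6 libraries singly, 4 with the replicate block, 4 without weights, 2 with an RPKM of 1 in 2 samples, 0 under both macrophage scalings, 8 with T cell scaling, 5 by limma-voom, and 0 to 1 with 1 library left out. Over all genes 327 were called, against 1563 with 6 libraries singly, 1151 with the replicate block, 1465 without the filter, 1481 with an RPKM of 1 in 2 samples, 1011 without weights, 186 per macrophage marker, 129 when Apoe and Ctsb were left out of those markers, 5742 per T cell marker and 2145 by limma-voom. Leaving out 1 library gave 124 to 332, the lowest without day 7 replicate 3. The mean of the 3 C1q chains minus macrophage markers differed between the days by 0.50, and by 0.43 to 0.80 in the alternatives. That mean joins opposite shifts, 1.00 for C1qa and C1qb and -0.50 for C1qc. The cause of these differences was not tested. Between libraries with the same replicate number, correlations of deviations from the day means were -0.019, -0.013 and -0.036. They cannot settle whether the numbers pair the libraries, because day 7 replicates 1 and 2 were nearly alike and replicate 3 stood apart. The block rests on the number alone. Depth limits C5ar1 and Serping1, with 142 reads or fewer in a library.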

Other observations

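Some low complement genes were read in part of the day 7 libraries. C4bp, an inhibitor of the classical C3 convertase, had no read in any day 14 library, and 1.98, 2.17 and 0 RPKM on day 7. C8b, a chain of the terminal complex, likewise had no read on day 14, and 1.58, 0.759 and 0 RPKM on day 7. The liver gene Fgb was at 0.0922, 0.0418 and 0 RPKM on day 14 and 6.59, 7.10 and 0.0805 on day 7, and Ahsg at 0, 0.108 and 0 on day 14 and 8.00, 6.41 and 0 on day 7, both low in day 7 replicate 3. Serpina1a was low in that library too, at 1.17 RPKM against 22.9 and 22.2 in day 7 replicates 1 and 2. Alb, Apoa1 and Ttr were high in all day 7 libraries. Apoa1 was at 0.711, 0.258 and 0.851 RPKM on day 14 and 63.8, 60.3 and 55.8 on day 7. Ttr was at 1.59, 0.131 and 0.493 on day 14 and 20.8, 21.3 and 14.6 on day 7. Cd55, which speeds the decay of C3 convertases, was at 0.869, 0.984 and 0.681 RPKM on day 14 and 3.46, 3.98 and 3.54 on day 7. It fell under the filter and gave an exact two-sided permutation p of 0.1, the smallest the design allows. C4bp, Cd55, Fgb and Ahsg were picked after their values were seen.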
